A study of Homo sapiens with 8 samples.

Results

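Oxidative phosphorylation (OXPHOS) is carried out by 5 complexes of the inner mitochondrial membrane, and the genes described here are the nuclear genes that encode their subunits. They were chosen by gene symbol (NDUFA, NDUFB, NDUFC, NDUFS and NDUFV genes, SDHA to SDHD, UQCR genes, CYC1, COX4 to COX8 genes, and ATP5F, ATP5M and ATP5P genes), with at least 100 counts summed over the 4 input libraries. Of 89 protein-coding nuclear genes with such a symbol 78 passed, out of 60664 gene identifiers in the count tables. Complex I supplied 35 of them, complex II 4, complex III 10, complex IV 12 (with NDUFA4, a subunit of complex IV despite its name) and complex V 17.

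Selective ribosome profiling had been applied to U-2 OS, a human cell line of osteosarcoma origin, to ask which nascent chains are bound by the chaperonin TRiC and by its partner prefoldin (PFD). One line carried a HaloTag on the TRiC subunit CCT4 (labelled CCT4-Halo) and the other on the prefoldin subunit PFD4 (labelled PFDN4-Halo). Both were made by CRISPR–Cas9 integration and sorted to single clones, so each chaperone was represented by a clonal line. All cells were given cycloheximide (100 µg ml−1, 1 min) and the crosslinker DSP (2 mM, 30 min), and RNase I was used to leave ribosome-protected fragments (RPFs), which were sequenced from the ribosome pellet (input) and from the anti-HaloTag pulldown, with 2 replicates of each of the 4 groups, or 8 libraries.

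Complexes I to IV pass electrons from NADH and succinate to oxygen and, except for complex II, pump protons, and complex V uses the proton gradient to make ATP. Apart from complex II, each complex joins subunits from both genomes. The nuclear-encoded ones are translated by cytosolic ribosomes and imported, mostly as unfolded precursors, whereas the mitochondrially encoded ones are made by ribosomes inside the organelle. TRiC is a cytosolic chaperonin best known for folding actin, tubulin and WD40 proteins, and PFD delivers such chains to it.

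The libraries held between 9523128 and 32637658 counts. Input markers fitted the labelled cell line in part. In the TRiC and PFD inputs VIM was at 1742 ± 48.5 and 1973 ± 109 CPM (counts per normalized library size; SD, n = 2) and COL1A1 at 3382 ± 245 and 4408 ± 86.4 CPM (SD, n = 2), while COL1A2 had at most 49 counts in any input. Markers of other lineages were at or near 0 except EPCAM, which had 189 to 263 counts in each input. PFD pulldown replicate 1 held the fewest counts and listed several subunits at or near 0 that the other PFD pulldown did not, so PFD values that rest on it are given with and without it.

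In total ribosomes the subunits of complex IV had the highest median level per kb of coding sequence. Levels are given as input CPM per kb of coding sequence, which scales counts to coding length. For these levels CPM was taken by total counts, not by normalized library size. The median level in the TRiC inputs was 768 for complex IV, 288 for complex V, 162 for complex III, 146 for complex I and 45.2 for complex II. In the PFD inputs the medians were 520, 269, 140, 108 and 38.0, in the same order of complexes. The complex IV coding sequences are short, at 189 to 507 bases, and the part of length in this order was not tested. Across the 78 genes the levels in the inputs of both lines had a Spearman correlation of 0.933, a description over genes that share libraries within a line.

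**Figure D1:**
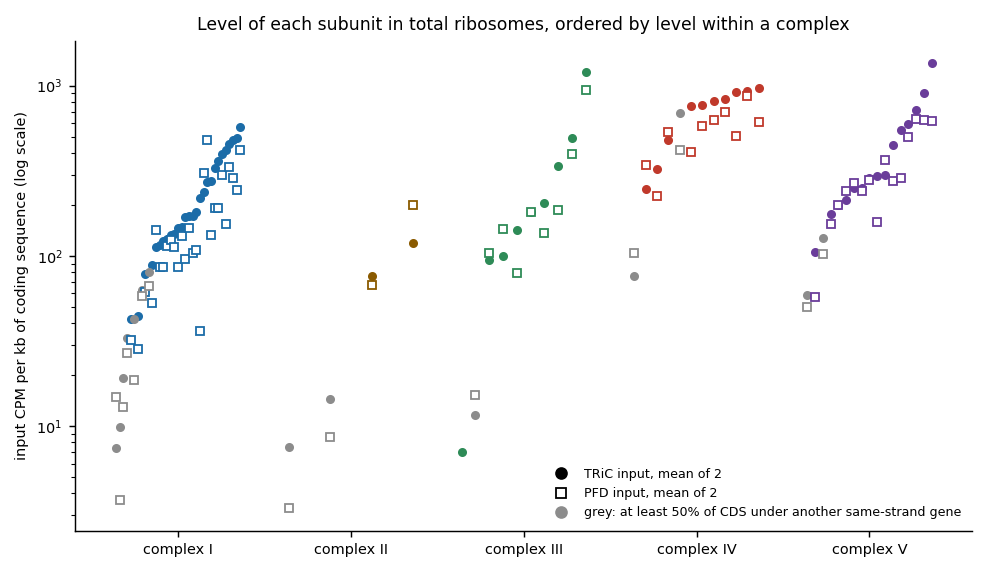
Level of each subunit in the inputs, as CPM per kb of coding sequence on a log axis, ordered by level within each complex. Circles are means of the 2 TRiC inputs and squares means of the 2 PFD inputs. CPM here is by total counts, and PFD values of 0 are not drawn. Complex IV holds most of the high values, with a median of 768 in the TRiC inputs, and most of the lowest values are grey, which marks genes with at least 50% of their coding sequence under another gene of the same strand.

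The lowest levels belonged largely to genes whose coding sequence also lies in another annotated gene. For 14 of the 78 genes at least 50% of the coding bases lay under another gene of the same strand in GENCODE 44. The complex I subunits NDUFV2 (100%) and NDUFA13 (98.4%), the flavoprotein SDHA (90.2%) and the complex III subunit UQCR11 (100%) had levels of 7.35, 9.78, 7.48 and 11.6 in the TRiC inputs. Exceptions were UQCRHL, the lowest at 6.98 with no overlap, and COX8A, at 692 with 55.1% overlap. STAR's gene counts leave out reads that fall in 2 genes, but the annotation it was given is not known, and the part of overlap in these levels was not tested. A second limit was sequence shared with other loci, since only unique alignments were kept. In 12 genes at least 50% of the 28-base words of the coding sequence recurred elsewhere in hg38, among them SDHD (83.3%), UQCRFS1 (76.2%), UQCRH (72.8%) and COX7C (68.5%).

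Within complex V the levels differed between subunits of the same assembly. ATP5F1B, the catalytic β subunit, was at 592 ± 27.4 in the TRiC and 502 ± 36.4 in the PFD inputs (SD, n = 2). The α subunit ATP5F1A was at 450.3 ± 18.0 and 274 ± 0.203, and the γ subunit ATP5F1C, of which the enzyme holds fewer copies, at 249 ± 19.8 and 269 ± 11.8 (SD, n = 2). ATP5F1B exceeded ATP5F1C by 2.38 ± 0.0791-fold in the TRiC inputs and by 1.87 ± 0.0535-fold in the PFD inputs (SD, n = 2). The 3 genes of the c subunit, which forms the rotating ring, together reached 3.24 ± 0.0133 times the level of ATP5F1B in the TRiC inputs and 2.84 ± 0.0822 times in the PFD inputs (SD, n = 2). ATP5F1E, the ε subunit, stood apart at 1359 ± 39.4 and 619 ± 32.7 with the shortest coding sequence of the 78 genes, 153 bases. Of the α and γ coding words, 24.3% and 23.6% recurred elsewhere in the genome, against 1.99% for β, 32.5, 31.8 and 8.27% for the c-subunit genes ATP5MC1, ATP5MC2 and ATP5MC3, and 39.7% for ε. Levels and ratios were not corrected for this.

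In the TRiC pulldown the nuclear-encoded OXPHOS subunits took a smaller share of RPFs than in the input. All but 3 of the 78 genes had a log2 fold change (pulldown over input) below 0, and the median was −0.32, against −0.00 for all 17934 genes tested. By edgeR's quasi-likelihood test with Benjamini-Hochberg adjustment over all genes tested, 44 of the 78 genes were lower and 1 was higher at an adjusted p under 0.05, where 10.6% of all genes were lower and 8.64% higher. For 66 genes both pulldown values lay below both input values, and for 3 above, as they did for 31.2% and 29.3% of all genes. The changes were small, and 6 genes were more than 1.5-fold lower. The share of all genes called is given for the main fit only, so counts under other settings describe the subunits alone. With all 8 libraries in one fit, which shares the larger spread of the PFD libraries, none of the 78 was called by edgeR (27 lower at an unadjusted p under 0.05). Against a change of at least 1.2-fold 14 were lower. Without TRiC input replicate 2 there were 25 lower genes.

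Summed over the 78 genes, the subunits made up 1.08 and 1.14% of all counts in the TRiC inputs and 0.936 and 0.888% in the TRiC pulldowns. In the PFD libraries the input shares were 0.835 and 0.850%, against 0.806 and 0.777% for the pulldowns. Both pulldowns lay below both inputs in each line, by less in the PFD line. A share of RPFs is relative to all other genes of a library. For the input shares of these bulk libraries, fewer cells making a subunit and fewer of its ribosomes per cell cannot be told apart. Gene totals hold no codon positions, so binding over a short stretch of a coding sequence need not raise a total.

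**Figure D2:**
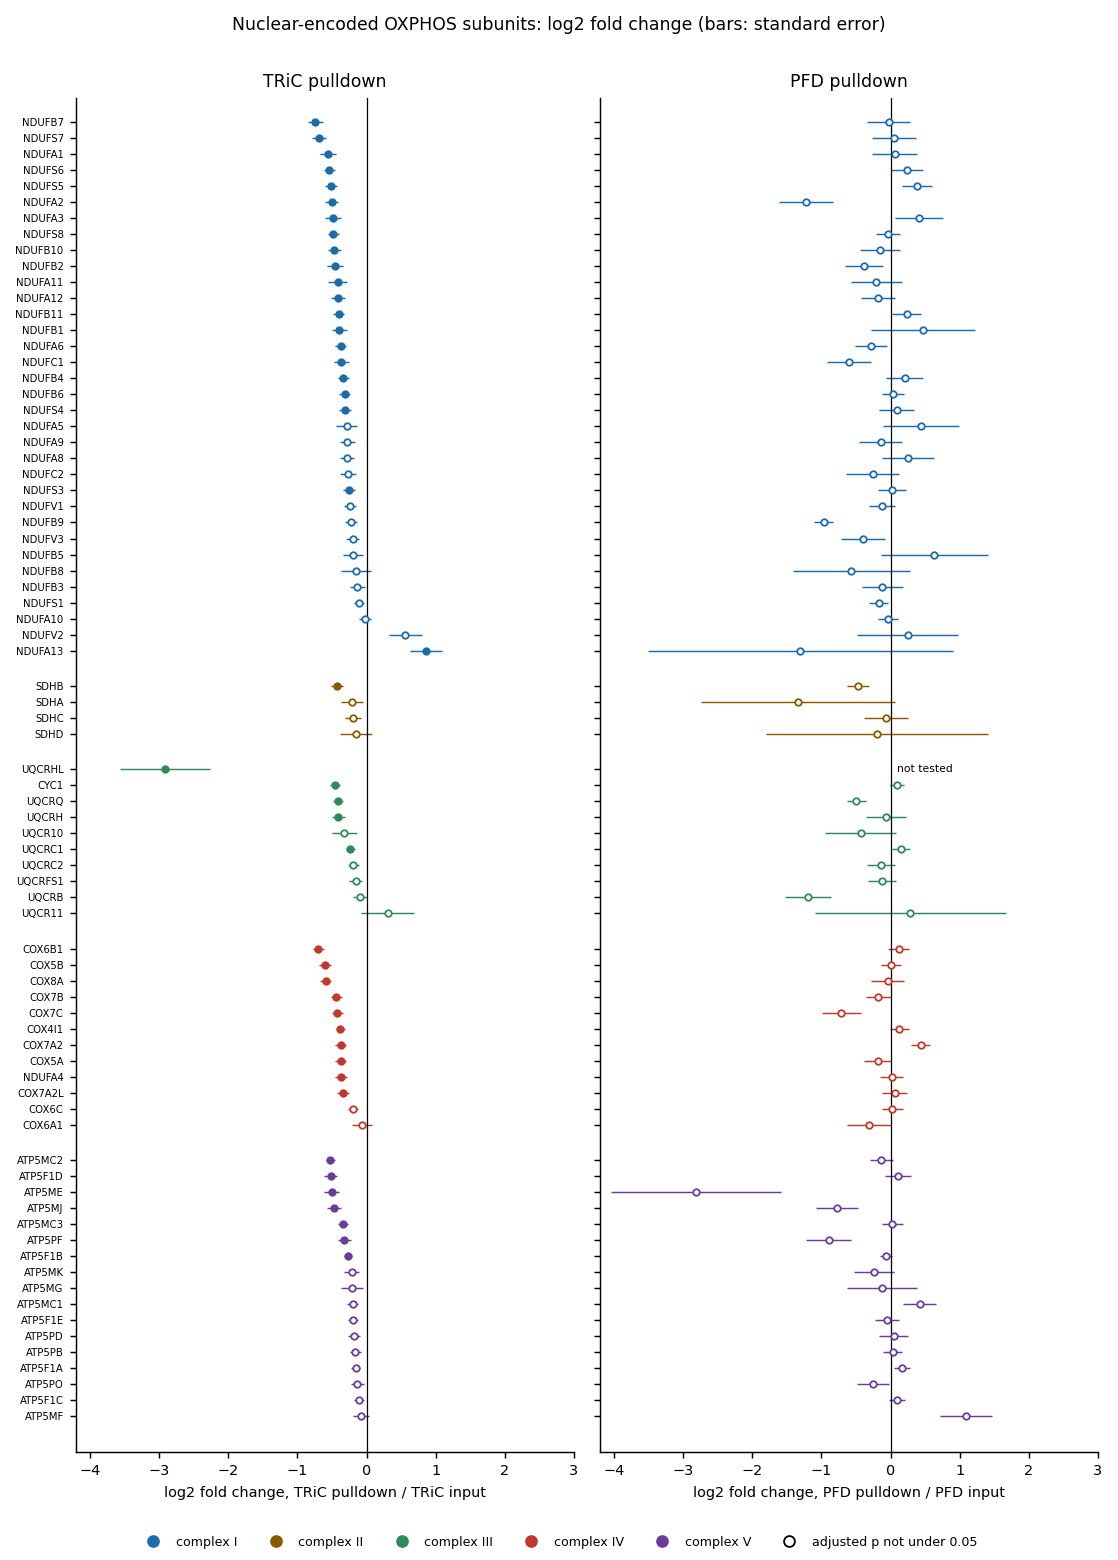
Log2 fold change of pulldown over input for 77 of the 78 genes (rows, grouped by complex) in the TRiC (left) and PFD (right) comparisons, with bars of 1 standard error and filled circles where the adjusted p was under 0.05. In the TRiC comparison 74 of 77 values lie left of 0 and 44 are filled; in the PFD comparison values scatter on both sides with wider bars and none is filled.

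Complex I, the NADH dehydrogenase, had 21 of 35 genes lower in the TRiC pulldown, with a median of −0.32. Its catalytic matrix arm holds the flavin and iron–sulfur centres. NDUFS7, which carries the last iron–sulfur cluster before ubiquinone, was at 54.0 and 48.3 CPM in the TRiC inputs and at 31.9 and 31.6 CPM in the pulldowns. Both pulldowns lay well below both inputs, with a log2 fold change of −0.69 (standard error, SE, 0.11; edgeR adjusted p = 0.000303). In the antisense direction, annotated exons of other genes cover 45.4% of the coding sequence of NDUFS7. Which strand was counted is not given in the sources used here.

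NDUFS8, another iron–sulfur subunit, went from 211 and 207 CPM to 158 and 142 CPM, a log2 fold change of −0.48 (SE 0.08, edgeR adjusted p = 0.000572). NDUFS3 (−0.26), which lies in the arm that leads to ubiquinone, was also lower (edgeR adjusted p = 0.0460), and its call was lost with library totals, by DESeq2, under cyclic loess, under the filter of 100 counts in every library and without either TRiC input or TRiC pulldown replicate 2. NDUFV1, which binds NADH and flavin, was at −0.24 (edgeR adjusted p = 0.0642) and NDUFS1, the largest subunit, at −0.11 (edgeR adjusted p = 0.314). NDUFV1 passed the threshold without TRiC pulldown replicate 1 (−0.36).

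The 28 supernumerary subunits, which surround the catalytic core, held 17 lower genes, 5 of 8 in the matrix arm and 12 of 20 in the membrane arm. The lowest was NDUFB7, on the intermembrane-space side of the membrane arm, at 82.4 and 69.1 CPM in the inputs and 48.9 and 41.7 CPM in the pulldowns. The groups did not overlap, and the log2 fold change was −0.74 (SE 0.11, edgeR adjusted p = 0.000229). Closest to 0 was NDUFA10, a membrane-arm subunit chosen for mention after its values were seen, had 124 and 119 CPM in the inputs and 119 and 121 CPM in the pulldowns. Its log2 fold change of −0.02 (SE 0.08, 95% interval −0.19 to 0.15) lay within the spread of the replicates (edgeR adjusted p = 0.890).

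NDUFA13, the 1 gene that was higher, came with a counting limit. Its TRiC counts were 128 and 121 (inputs) against 248 and 207 (pulldowns), or 4.62 and 4.00 against 7.44 and 8.22 CPM. The pulldowns were higher than the inputs by a log2 fold change of 0.86 (SE 0.23, edgeR adjusted p = 0.0140), and without TRiC input replicate 2 the call was lost (0.75, adjusted p = 0.114). The gene lies on chromosome 19 (hg38, 19515736 to 19529054, plus strand), and 98.4% of its coding sequence is also annotated in another gene of that strand. The other genes above 0 were NDUFV2 (0.56, edgeR adjusted p = 0.107), which passed the threshold without TRiC pulldown replicate 1 (0.73), and UQCR11 (0.30, edgeR adjusted p = 0.633). All 3 genes above 0 are those with the highest same-strand overlap of the 78. Whether their counts come from the subunit or from the overlapping gene was not tested.

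Without the 23 genes that had at least 50% of the coding sequence shared by overlap or by recurring 28-base words, all 55 remaining genes were below 0 in the TRiC pulldown. Of these 38 were lower and 0 higher by edgeR (0 higher at an unadjusted p under 0.05), with a median of −0.37. This selection was made after the values were seen. Among the 14 overlapped genes 2 were lower and 1 higher, with a median of −0.18.

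**Figure D3:**
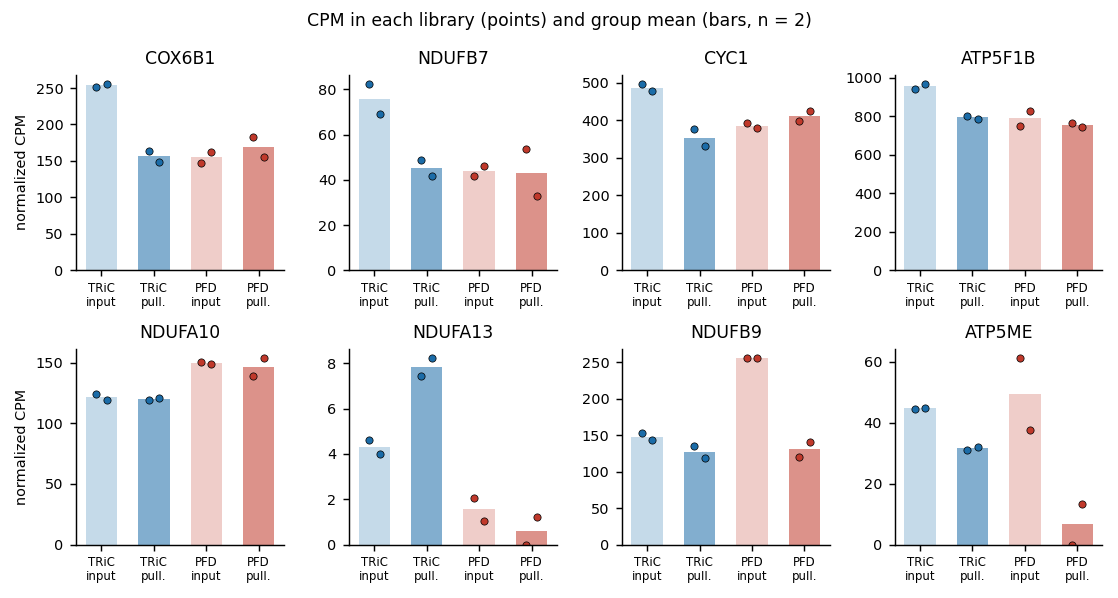
Normalized CPM of 8 subunits in each of the 8 libraries (points; bars are means of 2, axes start at 0). COX6B1, NDUFB7, CYC1 and ATP5F1B lie lower in both TRiC pulldowns than in both TRiC inputs, NDUFA10 overlaps, NDUFA13 lies higher, and NDUFB9 and ATP5ME lie lower in both PFD pulldowns than in both PFD inputs.

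Complex II, succinate dehydrogenase, is the one complex without a mitochondrially encoded subunit. Its iron–sulfur subunit SDHB was at 98.0 and 104 CPM in the TRiC inputs and at 74.7 and 75.6 CPM in the pulldowns. It was the 1 of 4 subunits that was lower, with a log2 fold change of −0.43 (SE 0.09, edgeR adjusted p = 0.00240). The flavoprotein SDHA (−0.21) and the membrane anchors SDHC (−0.20) and SDHD (−0.15) had adjusted p-values from 0.231 to 0.714 from edgeR. SDHD was at 0.11 without TRiC pulldown replicate 2. Of these 3 genes SDHA and SDHD are mostly covered by other genes of the same strand (90.2 and 65.8%), and SDHC and SDHD share most of their 28-base words with other loci (66.7 and 83.3%).

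In complex III, the cytochrome bc1 complex, 5 of 10 genes were lower, with a median of −0.28. Cytochrome c1, CYC1, is one of its catalytic subunits and went from 497 and 477 CPM to 377 and 330 CPM. This was 27.3% lower, a log2 fold change of −0.46 (SE 0.07, edgeR adjusted p = 0.000484). The large core proteins, which derive from a processing peptidase, changed less, with UQCRC1 at −0.24 (edgeR adjusted p = 0.0211) and UQCRC2 at −0.19 (edgeR adjusted p = 0.126). The call of UQCRC1 was lost under cyclic loess (−0.10), library totals (−0.19) and without either TRiC input or TRiC pulldown replicate 2. The Rieske iron–sulfur protein UQCRFS1 was at −0.16 (edgeR adjusted p = 0.255).

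UQCRH, the hinge protein that binds cytochrome c1, and UQCRHL, an intronless copy of it, showed how closely 2 members can share sequence. Their whole coding sequences are printed to show how few positions tell them apart, which are in capitals. UQCRH lies at chr1:46303767-46316581 on the plus strand and UQCRHL at chr1:15807377-15807649 on the minus strand (hg38, spliced coding sequence, 5′ to 3′).
UQCRH: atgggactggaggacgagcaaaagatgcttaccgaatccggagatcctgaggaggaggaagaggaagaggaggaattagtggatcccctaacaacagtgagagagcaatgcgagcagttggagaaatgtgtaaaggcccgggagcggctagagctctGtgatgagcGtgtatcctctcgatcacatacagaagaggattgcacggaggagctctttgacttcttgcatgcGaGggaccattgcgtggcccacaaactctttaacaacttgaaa
UQCRHL: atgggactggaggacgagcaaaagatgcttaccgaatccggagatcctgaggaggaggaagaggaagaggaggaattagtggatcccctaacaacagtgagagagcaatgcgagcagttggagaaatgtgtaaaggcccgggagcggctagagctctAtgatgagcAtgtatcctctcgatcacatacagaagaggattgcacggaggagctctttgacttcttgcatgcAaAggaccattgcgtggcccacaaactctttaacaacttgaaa
The sequences differ at 4 of 273 positions. Of the 28-base words of UQCRHL 55.3% recurred elsewhere in hg38, in which exons are not joined, against 72.8% for UQCRH.

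The TRiC inputs gave 44 and 69 counts to UQCRHL and the TRiC pulldowns 10 and 5, the lowest log2 fold change of the 78 genes at −2.92 (SE 0.65, edgeR adjusted p = 0.00488). The call was lost without TRiC input replicate 2 (−2.65, adjusted p = 0.0968). In all 4 PFD libraries UQCRHL had 0 counts and was not tested. UQCRH was at 54.4 and 58.9 CPM in the TRiC inputs and 42.6 and 42.9 CPM in the pulldowns, for a log2 fold change of −0.41 (edgeR adjusted p = 0.00787), and at 40.7 and 33.2 CPM in the PFD inputs. The near-identical pair did not move alike in the TRiC libraries, and how the reads were split between them was not tested.

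Complex IV, cytochrome c oxidase, had the largest share of lower genes, 10 of 12, with a median of −0.38 and every value below 0. All its nuclear subunits surround a mitochondrially encoded catalytic core. COX6B1, on the intermembrane side, was at 251 and 256 CPM in the TRiC inputs and at 164 and 149 CPM in the pulldowns. It was 38.2% lower, a log2 fold change of −0.70 (SE 0.08, edgeR adjusted p = 1.50e-05). COX5B, which binds zinc on the matrix side, went from 299 and 300.0 CPM to 215 and 179 CPM (−0.60, SE 0.08, edgeR adjusted p = 0.000132). COX4I1, which takes part in regulation by ATP, was at 419 and 418 CPM against 324 and 320 CPM, a log2 fold change of −0.38 (SE 0.07, edgeR adjusted p = 0.00102). In all 3 genes the groups were far apart relative to the replicates. The subunits not called were COX6C (−0.20) and COX6A1 (−0.06), and COX6A1 has 53.5% of its coding sequence under another gene of its strand.

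Complex V, ATP synthase, had 7 of 17 genes lower, with all 17 values below 0 and a median of −0.21. In the F1 head, which makes ATP, ATP5F1D (δ) went from 102 and 101 CPM to 75.8 and 66.0 CPM, a log2 fold change of −0.52 (SE 0.09, edgeR adjusted p = 0.000961). ATP5F1B had the highest CPM of the 5 head subunits, with 943 and 968 CPM in the inputs and 803 and 783 CPM in the pulldowns (−0.27, SE 0.06, edgeR adjusted p = 0.00614). That call was lost under cyclic loess (−0.11), library totals (−0.22) and without either TRiC input. ATP5F1A (−0.16), ATP5F1E (−0.20) and ATP5F1C (−0.11) did not pass (edgeR adjusted p = 0.0980, 0.0850 and 0.344). In the stalk and membrane part 3 of 9 genes were lower.

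The c ring is built from 1 mature protein that 3 genes encode. The parts before it differ between the genes, so the 3 nascent chains are alike only in part. The last 77 codons of each coding sequence are printed because they hold that mature subunit, and capitals mark the 57 of 231 positions at which the 3 genes are not all alike. ATP5MC1 lies at chr17:48895216-48895766 (plus strand), ATP5MC2 at chr12:53665317-53669266 (minus strand) and ATP5MC3 at chr2:175178291-175179175 (minus strand) of hg38, each spliced and read 5′ to 3′.
ATP5MC1: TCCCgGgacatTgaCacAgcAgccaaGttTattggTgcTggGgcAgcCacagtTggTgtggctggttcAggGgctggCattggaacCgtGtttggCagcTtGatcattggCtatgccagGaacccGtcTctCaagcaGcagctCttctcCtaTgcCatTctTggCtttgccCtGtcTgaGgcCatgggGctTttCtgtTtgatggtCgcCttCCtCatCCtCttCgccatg
ATP5MC2: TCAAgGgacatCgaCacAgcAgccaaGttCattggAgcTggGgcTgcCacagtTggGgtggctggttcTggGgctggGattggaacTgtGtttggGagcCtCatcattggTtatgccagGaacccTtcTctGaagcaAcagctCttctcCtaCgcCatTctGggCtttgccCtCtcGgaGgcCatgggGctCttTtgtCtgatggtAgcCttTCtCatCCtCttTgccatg
ATP5MC3: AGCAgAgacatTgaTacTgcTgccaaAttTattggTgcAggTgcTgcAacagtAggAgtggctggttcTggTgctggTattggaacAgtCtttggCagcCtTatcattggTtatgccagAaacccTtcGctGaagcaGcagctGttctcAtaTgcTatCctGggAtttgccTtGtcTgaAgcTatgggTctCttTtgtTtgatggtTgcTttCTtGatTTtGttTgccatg
The parts before these codons, which hold most of the import presequences, differ between the genes and are not shown.

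ATP5MC2 was at 387 and 390.0 CPM in the TRiC inputs and 274 and 267 CPM in the pulldowns, for a log2 fold change of −0.52 (SE 0.07, edgeR adjusted p = 7.91e-05). ATP5MC3 went from 306 and 317 CPM to 241 and 253 CPM, a log2 fold change of −0.34 (SE 0.07, edgeR adjusted p = 0.00332). ATP5MC1 was at 116 and 128 CPM against 105 and 108 CPM, at −0.20 (SE 0.08, edgeR adjusted p = 0.105). All 3 genes had both pulldowns below both inputs. Differences between the 3 genes were not tested, and 31.8% of the 28-base words of ATP5MC2, 32.5% of those of ATP5MC1 and 8.27% of those of ATP5MC3 recur elsewhere. The call of ATP5MC3 was lost without TRiC input replicate 2 (−0.32, adjusted p = 0.0572).

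OXPHOS subunits are short proteins, and in the TRiC pulldown short coding sequences went lower in general. The median coding length was 417 bases (153 to 2181) for the 78 genes, against 1431 bases for the protein-coding genes tested. Log2 fold change and coding length had a Spearman correlation of 0.33 over the 78 genes and of 0.35 over 14611 protein-coding genes, descriptions over genes measured in the same libraries. Of the 792 protein-coding genes tested with a coding length of at most 417 bases 34.6% were lower, with a median of −0.29, and of the 39 OXPHOS genes in that range 26 were lower, with a median of −0.37. Above that length 10.6% of 13819 protein-coding genes were lower, with a median of −0.02, and 18 of the other 39 OXPHOS genes, with a median of −0.24. Log2 fold change also correlated with coding GC content (−0.33 over the 78 genes, −0.20 over protein-coding genes). The part of length and base composition in the fold changes was not tested.

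**Figure D4:**
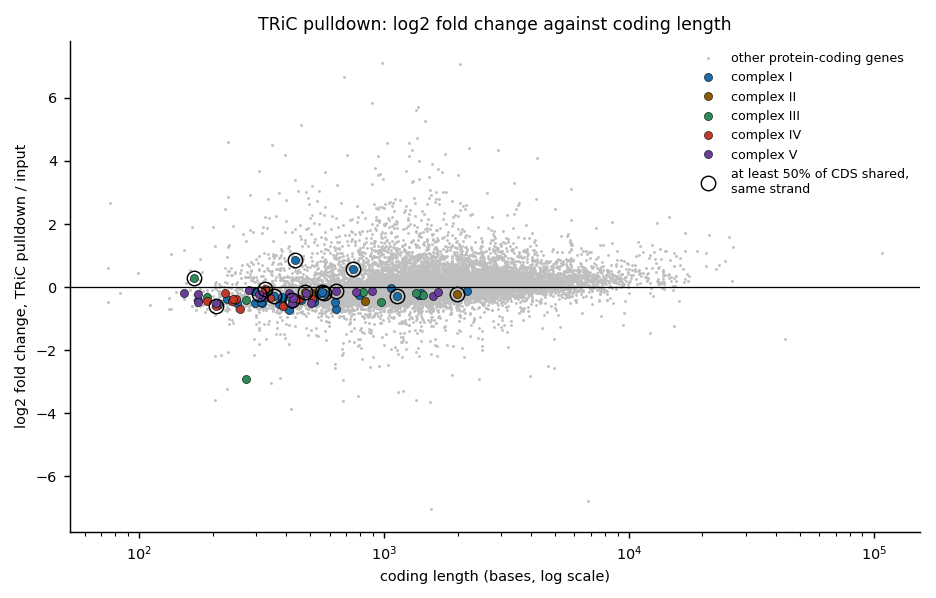
Log2 fold change in the TRiC pulldown against coding length (log axis) for protein-coding genes (grey) and OXPHOS subunits (coloured by complex; rings mark genes with at least 50% of the coding sequence shared on the same strand). The subunits lie at the short end, mostly just below 0, as do many other short genes, and the 3 subunits above 0 all carry rings.

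Other mitochondrial gene lists served as a measure of how far the pattern reached. The nuclear genes that work in the complexes but fall outside the symbol rule were also below 0. NDUFAB1 (−0.45), cytochrome c (CYCS, −0.41) and the ATP synthase inhibitor ATP5IF1 (−0.35) were lower, and DMAC2L was at −0.39 (edgeR adjusted p = 0.0502). Of 54 assembly factors 15 were lower and 3 higher (median −0.30). Of 26 import components tested 11 were lower and 0 higher (median −0.26), and of 17 tricarboxylic acid cycle enzymes 5 and 0 (median −0.16). For mitochondrial ribosomal proteins these counts were 43 and 0 of 76 (median −0.33), and for cytosolic ribosomal proteins 36 and 2 of 84 (median −0.26). The share of lower genes was 56.4% for the OXPHOS subunits and 56.6% for the mitochondrial ribosomal proteins.

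The subunits encoded by the mitochondrial genome had far lower values than their nuclear-encoded partners in both pulldowns. All 13 were lower in the TRiC pulldown, between −3.64 and −0.77 with a median of −2.95, and 9 of 13 in the PFD pulldown, with a median of −2.15. In complex IV, MT-CO2 went from 480 and 510 CPM in the TRiC inputs to 34.2 and 46.6 CPM in the pulldowns (−3.62), beside −0.38 for the nuclear COX4I1. In complex III, MT-CYB, cytochrome b, went from 1209 and 1284 CPM to 103 and 146 CPM (−3.33), beside −0.46 for CYC1. The exception among them was MT-ND6, from 94.7 and 98.1 CPM to 57.9 and 55.5 CPM (−0.77). MT-ND6 is the one protein-coding gene on the light strand of the mitochondrial genome, and its PFD value was −1.88.

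As a share of all counts the 13 genes made up 0.630 and 0.729% in the TRiC inputs and 0.0937 and 0.117% in the TRiC pulldowns. In the PFD libraries the input shares were 0.556 and 0.566%, against 0.166 and 0.105% for the pulldowns. Their share was lower in each pulldown than in each input of the same line, though above 0 in all. Some of these genes overlap (MT-ATP8 with MT-ATP6, MT-ND4L with MT-ND4), where reads within both are not counted.

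**Figure D5:**
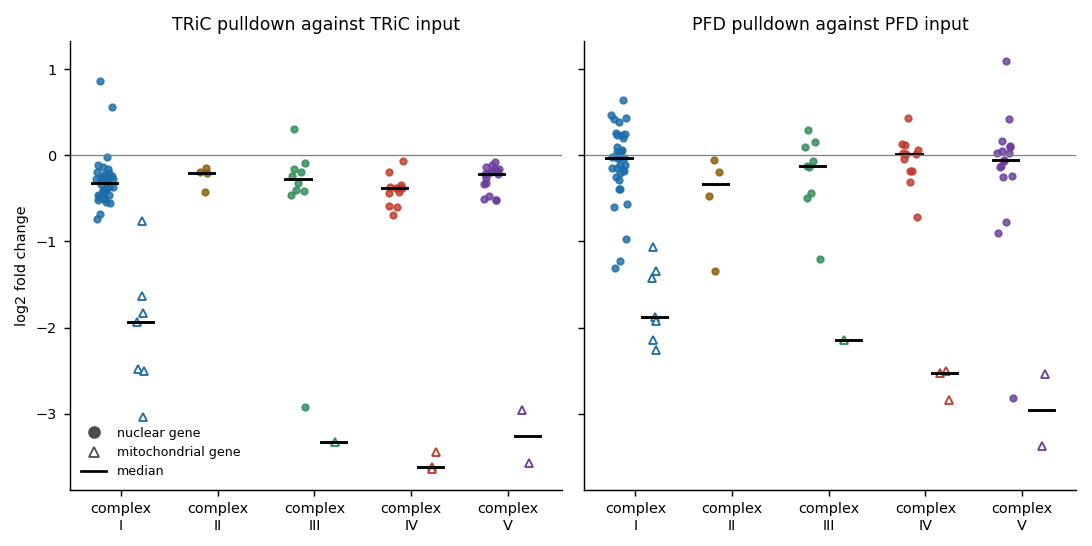
Log2 fold change of pulldown over input for nuclear-encoded (filled circles) and mitochondrially encoded (open triangles) subunits by complex, in the TRiC (left) and PFD (right) comparisons, with medians as black lines. The triangles lie between −3.64 and −0.77 in the TRiC comparison, below nearly all circles, and complex II has no triangles.

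In the PFD pulldown no common direction was measured for the nuclear-encoded subunits. Of 77 genes tested 44 were below and 33 above 0, with a median of −0.05, against −0.00 for all 14111 genes. By edgeR none of the 77 was lower or higher at an adjusted p under 0.05. Of all genes 0.191% were lower and 0.0496% higher. At an unadjusted p under 0.05 there were 10 of the 77, beside 978 of all 14111 genes. DESeq2 called 5 lower and 2 higher. For 20 genes both pulldowns lay below both inputs and for 8 above, beside 20.4% and 18.3% of all genes. The median standard error was 0.24, against 0.09 in the TRiC comparison, and the common dispersion 0.331 against 0.0153. In counts simulated from the PFD libraries edgeR recovered 44 of 200 genes changed 2-fold (12985 genes), with 4 false calls. Of 200 genes changed 1.25-fold (12952 genes) it recovered 0, with 0 false calls. DESeq2 recovered 97 and 4 of these genes but made 59 and 44 false calls, so its PFD calls are not relied on. For TRiC edgeR recovered 200 of 200 at 2-fold and 22 of 200 at 1.25-fold. Only 200 genes were changed in each simulation, so recovery where more genes change need not be the same. The changed genes were drawn from the more abundant ones, so recovery of scarce genes was not tested. Counts were drawn with the spread estimated by edgeR, which may favour edgeR over DESeq2.

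Most of the core subunits listed here lay close to 0 in the PFD pulldown, with wide intervals, and ATP5MC1 (0.42) lay furthest from 0. NDUFS1 was at −0.17, NDUFV1 at −0.12, NDUFS3 at 0.02, NDUFS7 at 0.05 and NDUFS8 at −0.03. CYC1, with 391 and 379 CPM in the inputs and 396 and 425 CPM in the pulldowns, was at 0.09 (SE 0.11). UQCRC1 was at 0.15, UQCRC2 at −0.14, UQCRFS1 at −0.13 and COX4I1 at 0.13. Several of these signs turn with the scaling or with a left-out library, so no direction is given for them. ATP5F1B had 750 and 828 CPM in the inputs and 762 and 745 CPM in the pulldowns (−0.07, SE 0.09), which overlapped. ATP5F1A (0.16), ATP5F1C (0.10), ATP5F1D (0.11), ATP5F1E (−0.05), ATP5MC1 (0.42), ATP5MC2 (−0.13) and ATP5MC3 (0.03) had adjusted p-values of at least 0.822 from edgeR.

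The genes of complex II were all below 0 in the PFD pulldown without passing the test. SDHB was at 150 and 179 CPM in the inputs and at 122 and 114 CPM in the pulldowns, for a log2 fold change of −0.47 (SE 0.16, edgeR adjusted p = 0.702), and DESeq2 called it (adjusted p = 0.0435). SDHC was at −0.06, and at 0.16 without PFD pulldown replicate 1. SDHA input counts were 120 and 69, against 2 and 136 in the pulldowns, and SDHD 80 and 41 against 1 and 197. Those low counts came from PFD pulldown replicate 1. Without that library SDHD was at 0.77 in place of −0.19, and SDHA at −0.43 in place of −1.34 (SE 1.40, edgeR adjusted p = 0.948). Without PFD pulldown replicate 2, SDHA was at −4.84 (edgeR adjusted p = 0.0111). NDUFV2 was at 0.25, and at −1.10 without PFD pulldown replicate 1.

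NDUFB9, a supernumerary subunit of complex I chosen for mention after its values were seen, came nearest to a call in the PFD pulldown. The PFD inputs held 256 and 255 CPM of it and the PFD pulldowns 120 and 141 CPM. The replicates were close and the groups far apart, with a log2 fold change of −0.97 (SE 0.14, edgeR adjusted p = 0.0610). The value passed the threshold under DESeq2 (−0.96), cyclic loess (−0.97), each other filter on low counts, all 8 libraries in one fit (−0.98) without either PFD pulldown (−0.86 and −1.10) and without PFD input replicate 2, but not with library totals, by glmTreat or without PFD input replicate 1. In the TRiC libraries it was at 152 and 143 CPM in the inputs and 135 and 118 CPM in the pulldowns (−0.23, edgeR adjusted p = 0.0725). An opposite-strand gene covers 18.8% of its coding bases, and 17.5% of its 28-base words recur elsewhere.

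ATP5ME, the e subunit of ATP synthase, also chosen after its values were seen, showed the lowest PFD value. Its PFD counts were 1181 and 390 (inputs) against 0 and 380 (pulldowns), or 61.2 and 37.6 against 0 and 13.3 CPM. The log2 fold change was −2.82 (SE 1.23, edgeR adjusted p = 0.723) and −1.90 without PFD pulldown replicate 1, where it was called (adjusted p = 2.25e-06). It was also called with the replicate block (−3.89), with no filter on low counts (−2.81), without PFD input replicate 2 (−3.16) and without PFD pulldown replicate 2, where the remaining pulldown held 0 counts. In the TRiC pulldown it was at −0.51 (SE 0.10, edgeR adjusted p = 0.00288). Annotated exons on the opposite strand cover 43.96% of the coding sequence of ATP5ME.

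The difference between both pulldowns was tested as an interaction over all 8 libraries (TRiC log2 fold change minus PFD log2 fold change). None of the 78 genes passed by edgeR, of 18855 tested, where 0.0212% of all genes had a difference above and 0.0159% below 0. At an unadjusted p under 0.05 there were 21, of which 19 were below 0, beside 2791 of all 18855 genes in either direction. DESeq2 called 6 below and 1 above 0. UQCRHL, at 0 in the PFD libraries, has no measured difference, and over the other 77 genes the median was −0.20 with 55 below 0. The lowest adjusted p was that of COX7A2, at −0.80 (SE 0.14, edgeR adjusted p = 0.120), followed by COX6B1 at −0.80 (SE 0.14, edgeR adjusted p = 0.122). In libraries simulated in the same way edgeR's interaction test recovered 14 of 200 genes with a 2-fold difference and 0 of 200 with a 1.25-fold one. DESeq2 recovered 73 and 0 of them, with 33 and 32 false calls. The subunits are therefore not shown to differ between the pulldowns, nor to be alike. Over the 77 genes tested in both, the TRiC and PFD log2 fold changes, which share no library, had a Spearman correlation of −0.03.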

How the data were processed

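Per the labels and the study's methods, the authors trimmed and demultiplexed reads, removed PCR duplicates with UMI-tools, discarded non-coding RNA with Bowtie2 2.4.2 and mapped to hg38 with STAR 2.7.10a (at most 2 mismatches, unique alignments). The deposited values are STAR gene counts, whole numbers without normalization, in 1 table per cell line. The annotation release and the strand counted are not given in the sources used here. GENCODE 44 gave names, positions and coding sequences for 60463 of 60664 identifiers.

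Pulldown and input were compared per line by edgeR 4.0.16 under R 4.3.3 (normalized by TMM, filterByExpr, quasi-likelihood test, no replicate block, Benjamini-Hochberg over all genes tested, threshold 0.05), and the difference as an interaction over 8 libraries. The p-values set the difference between groups against the spread between 2 replicates per group, which edgeR estimates in part across genes. Normalized CPM and standard errors come from those fits, whereas levels per kb use CPM by total counts. For coding length the canonical transcript was used, and shared sequence was counted as 28-base words with an exact match elsewhere. At 9523128 to 32637658 counts per library, replicate spread rather than counting limits the precision of abundant genes.

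The genes, lists, tests and alternatives (DESeq2 1.42.0, cyclic loess with limma 3.58.1, library totals, 3 other filters, all 8 libraries in one fit, glmTreat at 1.2-fold, a replicate block, leaving out each library) were chosen with earlier results of these data known. Own values are given for core subunits and for up to 5 highest and 5 lowest called genes per pulldown, and other genes were named with their values known. Of the 78 genes, 1 was left out of the values given gene by gene. The fits were tested on simulated data.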

Additional observations from a re-analysis of the deposited data

How the results depend on the processing

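The number of lower genes in the TRiC pulldown (44) stayed within 1.5 times under the replicate block, DESeq2, library totals, cyclic loess and each filter, but was 14 by glmTreat, 0 with all 8 libraries in one fit, and 25 to 49 with 1 library left out. The number of higher genes (1) was 2 with at least 100 counts required, 0 with all 8 libraries in one fit, by glmTreat and without genes mostly shared with another gene or sequence, and 0 to 2 with 1 library left out. The median of −0.32 was −0.27 with library totals, −0.24 under cyclic loess, −0.25 with at least 100 counts required, −0.37 without shared genes, and −0.36 to −0.28 with 1 library left out.

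In the PFD pulldown (0 lower, 0 higher) lower genes numbered 3 with the replicate block (ATP5ME, UQCRB and NDUFB9), 5 by DESeq2, 3 with no filter, 1 (NDUFB9) under cyclic loess, with at least 10 or at least 100 counts required and with all 8 libraries in one fit, and 0 to 11 with 1 library left out, 11 without PFD pulldown replicate 2. Higher genes numbered 2 by DESeq2 and 0 to 4 with 1 library left out, 4 without PFD pulldown replicate 2. For the difference between pulldowns (0 and 0) DESeq2 called 1 higher and 6 lower, no filter 3 and 5, and leaving out 1 library 0 to 10 higher and 0 to 16 lower, both highest without PFD pulldown replicate 2. The cause was not tested. The share of all genes called is given for the main fits only, so counts under other settings describe the subunits alone.

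Signs of values not called turned in these cases. In the TRiC pulldown NDUFS1 was at 0.0060 and ATP5F1C at 0.0032 under cyclic loess, and SDHD between −0.48 and 0.11 with 1 library left out. In the PFD pulldown NDUFV2 was at −0.072 with the replicate block and −0.14 under cyclic loess, NDUFS3 at −0.016, ATP5MC3 at −0.011 and COX5B at −0.021 with library totals, and NDUFS3 at −0.00028 and COX5B at −0.0012 with all 8 libraries in one fit. With 1 library left out the PFD ranges were −0.15 to 0.076 for NDUFS8, −0.19 to 0.21 for ATP5MC3, −0.063 to 0.080 for COX5B, −0.15 to 0.17 for NDUFS3, −0.33 to 0.34 for NDUFS7, −0.33 to 0.16 for SDHC, −0.42 to 0.28 for NDUFB7, −0.32 to 0.049 for NDUFV1, −1.10 to 0.94 for NDUFV2, −5.12 to 0.77 for SDHD, −0.38 to 0.061 for UQCRC2, −0.059 to 0.28 for COX4I1, −0.074 to 0.27 for ATP5F1D, −0.0031 to 0.23 for COX6B1, −0.29 to 0.022 for UQCRFS1 and −0.34 to 0.050 for ATP5MC2.

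Same-numbered libraries did not deviate together (correlation 0.06 for TRiC, −0.01 for PFD), so the replicate numbers do not show a pairing; with the block 54 genes were lower in the TRiC pulldown. Fits with 1 library in a group assume that it varies like the others. What limits these results is 2 replicates per group and the wide spread of the PFD libraries.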

Other observations

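The 11 nuclear genes that matched the symbols but had fewer than 100 input counts included tissue-specific forms, such as COX4I2 (2 counts over the 4 inputs), the muscle forms COX6A2 (3) and COX7A1 (48), the testis form COX6B2 (38) and COX8C (0). NDUFA7, a ubiquitous complex I subunit, had 11 counts, and 100% of its coding sequence lies under another gene of its strand.

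Between the inputs of both lines, which are separate tables and were not tested against each other, UQCRHL had 44 and 69 counts in the TRiC inputs (6.98 ± 1.96 CPM per kb, SD, n = 2) and 0 in both PFD inputs. Of the other 77 genes, 8 had a level per length more than 2-fold higher in the TRiC line and 1 more than 2-fold higher in the PFD line. NDUFB1, a membrane-arm subunit of complex I, differed most among those 77, with 220 ± 0.0420 in the TRiC and 35.9 ± 4.02 in the PFD inputs (SD, n = 2), and 36.05% of its 28-base words recur elsewhere.

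Among the assembly factors, the 3 that were higher in the TRiC pulldown were CMC2 (0.62), which acts in complex IV biogenesis, NDUFAF7 (0.39), a methyltransferase of complex I assembly, and COA1 (0.33). The lowest called ones were the complex IV factors COX14 (−0.74) and COX20 (−0.70).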
